A study of Mus musculus with 14 samples.

Results

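The genes described here encode the secreted and membrane-bound proteases that cut the extracellular matrix, and the inhibitors of those proteases. They were the genes of the expression table whose symbols began with Mmp, Timp or Adamts followed by a number, with Adamts1 left out, which gave 44 of the 21853 genes: 22 matrix metalloproteinases (Mmp), 4 tissue inhibitors of metalloproteinases (Timp) and 18 proteases of the Adamts family. The genes were chosen by name and not by any measured value.

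Matrix metalloproteinases and Adamts proteases are zinc enzymes, made as inactive precursors, that cut collagens, proteoglycans, fibronectin and other matrix proteins. The Timp proteins bind their active sites and block them, so the amount of matrix cut in a tissue depends on protease, activator and inhibitor together. In the ovary these enzymes are known for the opening of the follicle wall at ovulation and the building and breakdown of the corpus luteum, and in the uterus for the remodelling of the lining and wall over the estrous cycle and pregnancy.

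The ovaries and uteruses came from C57BL/6J female mice of 28 weeks, with no genetic change named, and each mouse gave an ovary and a uterus library of total RNA depleted of ribosomal RNA. The old treatment group (OT, 4 mice) received AMSC-CM, the culture medium in which mesenchymal stem cells of the human amniotic membrane had grown, through the tail vein in 6 injections 4 days apart at 1 µL per g. The old control group (OC, 3 mice) received saline by the same route. All mice of both groups had first been given 10 IU of pregnant mare serum gonadotropin and, 48 h later, 10 IU of human chorionic gonadotropin to synchronise their cycles, and the conditioned medium was a mixture from several human donors, so the mice and not the donors were the replicates. The 14 libraries therefore formed 4 groups, OC ovary (n = 3), OT ovary (n = 4), OC uterus (n = 3) and OT uterus (n = 4).

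The values were FPKM, that is, mapped fragments divided by transcript length and by the size of the library, so that they are scaled for gene length and can be set side by side between genes. Total FPKM per library was 374816 to 397644 in the 7 ovaries and 425875 to 471907 in 6 of the uteruses, and 577494 in the uterus of OT1. That library stood apart: among the 7 uteruses it held the lowest value in 32.5% and the highest value in 31% of all tested genes, so values without it are given where a result rests on it. The tissue labels held against marker genes, with 7 of 7 granulosa cell, 7 of 7 oocyte and 6 of 7 theca and luteal genes lower in the uterus, and 7 of 8 uterine and 7 of 7 smooth muscle genes higher there. Fshr of granulosa cells and Zp3 of the oocyte were listed at 0 in every uterus. The 7 genes of oviduct and ciliated cells summed to 476 to 998 FPKM in the ovary libraries and to 7.44 to 173 FPKM in the uterus libraries.

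Of the 22 Mmp genes, 9 lie side by side on chromosome 9 (chr9:7272514-7699585, a stretch of 427 kb), in the order Mmp13, Mmp12, Mmp1b, Mmp3, Mmp10, Mmp8, Mmp27, Mmp20 and Mmp7. The TGANTCA motif, the element bound by Fos and Jun proteins that is known from several Mmp promoters, was searched on both strands in the 250 bases before each transcription start in the RefSeq promoters of GRCm38.p6, in which 30 of the 44 members were matched. It was present in 7 of the 9 genes of the chromosome 9 stretch, in 0 of the other 21 matched members and in 7.82% of all 27025 genes with a promoter there, any promoter of a gene being counted. The letters TATAAA, also searched on both strands, were present in 6 of those 9 genes, in 1 of the other 21 and in 14.3% of all genes, and no match of the one overlapped a match of the other in the windows shown here. Mmp3, Mmp12, Mmp8 and Mmp7 are shown as the genes of the stretch with enough RNA to be tested, Mmp13 and Mmp10 as low neighbours of the same stretch, and Timp4 because it was the member with a called treatment difference. Each line gives the 100 bases before the start, 5′ to 3′ on the gene's strand, with both motifs in capitals:
Timp4 (chr6:115252206-115252305, minus strand): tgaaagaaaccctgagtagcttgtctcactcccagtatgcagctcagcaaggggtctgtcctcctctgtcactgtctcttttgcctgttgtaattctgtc
Mmp13 (chr9:7272414-7272513, plus strand): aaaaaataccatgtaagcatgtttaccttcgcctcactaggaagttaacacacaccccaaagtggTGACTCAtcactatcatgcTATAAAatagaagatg
Mmp12 (chr9:7347274-7347373, plus strand): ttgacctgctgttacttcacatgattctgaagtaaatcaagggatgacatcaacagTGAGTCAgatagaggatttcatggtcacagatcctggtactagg
Mmp3 (chr9:7445722-7445821, plus strand): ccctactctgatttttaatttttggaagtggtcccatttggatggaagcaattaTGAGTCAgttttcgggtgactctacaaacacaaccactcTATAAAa
Mmp10 (chr9:7502242-7502341, plus strand): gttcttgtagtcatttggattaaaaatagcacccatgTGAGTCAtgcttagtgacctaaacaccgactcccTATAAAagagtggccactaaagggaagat
Mmp8 (chr9:7558329-7558428, plus strand): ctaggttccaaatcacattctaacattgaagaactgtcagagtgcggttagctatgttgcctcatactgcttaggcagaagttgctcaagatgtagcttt
Mmp7 (chr9:7691990-7692089, plus strand): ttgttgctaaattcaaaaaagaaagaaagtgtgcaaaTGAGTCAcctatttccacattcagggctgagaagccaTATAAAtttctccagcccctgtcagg

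In these windows the first base of TGANTCA lay 35 bases before the start in Mmp13, 44 in Mmp12, 46 in Mmp3, and 63 in both Mmp10 and Mmp7. Neither motif was found in the windows of Mmp8 and Timp4. For Mmp12 and Mmp7, which have 2 starts each, the start whose window overlapped no annotated exon is shown, and neither motif was found in the 100 bases before the other start of each. The Mmp12 start shown lies inside the annotated gene (chr9:7344381-7369499, plus strand).

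A few members made up most of the RNA of the family in both tissues. In the ovary, Timp1, Mmp14, Mmp2, Timp2 and Timp3 held 65.0% of the summed FPKM of the 44 members, and in the uterus Timp2, Mmp14, Mmp2, Timp3 and Mmp19 held 63.6%. Timp1, a secreted inhibitor of most matrix metalloproteinases, led the ovary at 207 ± 57.3 FPKM (mean ± SD, n = 7), above the 96.4 FPKM of the highest Mmp14 library, so its range did not overlap that of the next gene. The ranges of Mmp14 (89.7 ± 7.25), Mmp2 (83.7 ± 5.45), Timp2 (74.3 ± 8.68) and Timp3 (73.8 ± 4.65) overlapped from each to the next, and Timp3 did not overlap Mmp11 (52.8 ± 5.40), the gene after it. In the uterus the order opened with Timp2 at 209 ± 22.0 FPKM, followed without overlap by Mmp14 at 141 ± 23.8. Mmp2 at 116 ± 24.8 overlapped Mmp14, whereas Timp3 at 71.6 ± 6.22 did not overlap Mmp19 at 54.7 ± 7.66.

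**Figure D1:**
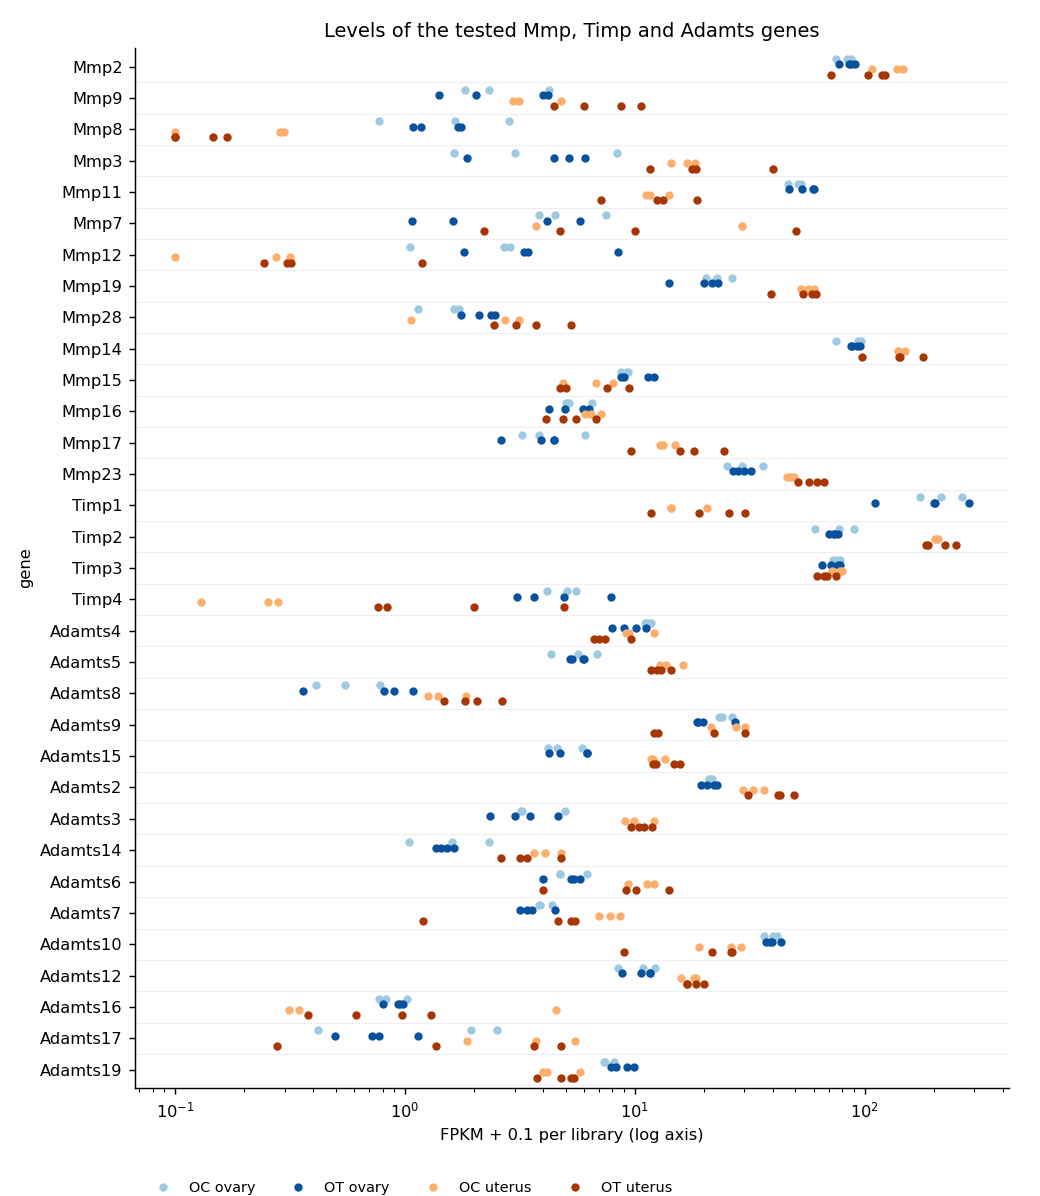
FPKM + 0.1 (log axis) of the 33 tested genes in each of the 14 libraries, with 1 point per library, genes listed by class, and colours for the 4 groups. Timp1 lies far to the right in the ovary (111 to 284 FPKM) and between 11.7 and 30.1 FPKM in the uterus, whereas Timp3 lies at the same place in both tissues.

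Summed by family, the 22 Mmp genes came to 311 ± 30.7 FPKM in OC ovaries and 318 ± 4.14 in OT ovaries, and to 460 ± 42.8 in OC uteruses and 449 ± 76.6 in OT uteruses. The 4 Timp genes summed to 373 ± 40.9 and 350 ± 69.1 FPKM in OC and OT ovaries, and to 298 ± 9.35 and 303 ± 31.6 in OC and OT uteruses. The 18 Adamts genes summed to 142 ± 3.82 and 137 ± 12.9 in the ovaries and to 182 ± 7.47 and 171 ± 19.9 in the uteruses. In every family and tissue the OC and OT ranges of the sum overlapped.

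Low members were many. A mean of at least 0.5 FPKM over the libraries of a fit was needed for a test, which 33 of the 44 members reached in the ovary and 31 in the uterus. The highest mean among the untested members was 0.374 FPKM in the ovary (Mmp10) and 0.363 FPKM in the uterus. Mmp20, the protease of tooth enamel, was listed at 0 in all 14 libraries, and Adamts13, which cuts von Willebrand factor, was listed at 0 in all 7 ovaries. Mmp1b and Mmp21 were listed at 0 in every uterus. The sequencing depth is unknown, so a listed 0 carries no detection limit.

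The first comparison asked which tissue held more of each transcript. Genes were fitted with limma over all 14 libraries on log2(FPKM + 0.1), and a gene was called at a difference of at least 2-fold with a Benjamini-Hochberg adjusted p under 0.05. Of the 33 members tested, 14 were called (42.4%), 9 higher and 5 lower in the uterus, where 19.6% of all 14557 tested genes were called, 10% higher and 9.59% lower. The median difference, uterus over ovary, was 0.65 on the log2 scale over the members and -0.00 over all tested genes. Among the members tested, 24 had an adjusted p under 0.05 (52.9% of all genes did), and 10 of the 24 differed by less than 2-fold. The 7 uterus values did not overlap the 7 ovary values for 18 members, against 25% of all genes. Mmp8 and Mmp12 passed the filter through the ovary, since their means in the uterus were 0.0716 and 0.294 FPKM, so a difference between tissues was built in by how they were admitted. Among the 31 members with a mean of at least 0.5 FPKM in both tissues, 12 were called (38.7%), 9 higher and 3 lower, where 15.6% of the 13653 such genes were called.

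The 4 inhibitors did not share a tissue. Timp1 ranged from 111 to 284 FPKM (median 201) in the ovary and from 11.7 to 30.1 FPKM (median 18.9) in the uterus, and was lower in the uterus by 3.47 on the log2 scale (log2 difference -3.47, SE 0.23, limma adjusted p = 6.19e-08). Timp2, which inhibits Mmp2 and also takes part in its activation by Mmp14, ranged from 60.4 to 89.4 FPKM (median 73.7) in the ovary and from 185 to 249 FPKM (median 205) in the uterus. It was higher in the uterus (log2 difference 1.49, SE 0.09, limma adjusted p = 3.05e-08). Every ovary lay above every uterus for Timp1 and below every uterus for Timp2.

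Timp3, an inhibitor that stays bound to the matrix and also blocks several Adamts proteases, had ovary values of 65.0 to 77.9 FPKM and uterus values of 61.9 to 79.4 FPKM. Its log2 difference was -0.04 (95% interval -0.17 to 0.10, limma adjusted p = 0.631), the narrowest interval of the 4 inhibitors. Timp4, known from heart, brain and fat tissue, ranged from 2.98 to 7.75 FPKM (median 4.80) in the ovary and from 0.0299 to 4.80 FPKM (median 0.667) in the uterus. It was lower in the uterus (log2 difference -3.03, SE 0.40, limma adjusted p = 2.72e-05), although the uterus of OT1 reached into the ovary range.

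Of the gelatinases, which cut denatured collagen and the collagen of basement membranes, neither differed by 2-fold. Mmp2 (log2 difference 0.46, SE 0.12, limma adjusted p = 0.0049) and Mmp9 (0.93, SE 0.30, adjusted p = 0.0188) were both higher in the uterus, with overlapping values. Mmp14, the membrane-bound activator of Mmp2, ranged from 75.3 to 96.4 FPKM (median 92.1) in the ovary and from 97.3 to 178 FPKM (median 141) in the uterus. The tissues did not overlap for Mmp14, at a log2 difference of 0.65 (SE 0.11, limma adjusted p = 0.000327). Of the 5 membrane-bound members tested, 1 was called: Mmp17, which is anchored by a lipid, ranged from 2.53 to 5.98 FPKM in the ovary and from 9.53 to 24.4 FPKM in the uterus (log2 difference 1.89, SE 0.21, limma adjusted p = 6.10e-06).

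The stromelysins went in opposite directions. Mmp3, which cuts proteoglycans and activates other Mmp precursors, ranged from 1.53 to 8.25 FPKM in the ovary and from 11.6 to 39.8 FPKM in the uterus, without overlap (log2 difference 2.28, SE 0.38, limma adjusted p = 0.000211). Mmp11, which is activated inside the cell by furin, ranged from 46.5 to 60.0 FPKM in the ovary and from 7.03 to 18.5 FPKM in the uterus, also without overlap (log2 difference -2.10, SE 0.17, limma adjusted p = 2.75e-07). Mmp3 thus had more RNA in every uterus than in any ovary, and Mmp11 in every ovary than in any uterus.

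Among the collagenases and the other secreted proteases, 2 were low in the uterus. Mmp8, the collagenase known from neutrophils, ranged from 0.673 to 2.73 FPKM in the ovary and did not exceed 0.197 FPKM in the uterus (log2 difference -3.19, SE 0.36). Mmp12, the elastase known from macrophages, ranged from 0.956 to 8.33 FPKM in the ovary and from 0 to 1.09 FPKM in the uterus (log2 difference -3.22, SE 0.46), and the uterus of OT2 reached into the ovary range. Of the 7 macrophage genes listed, 0 were called lower and 1 higher in the uterus. Of the 6 neutrophil genes listed, 3 could be tested and 0 were called in either direction, with sums of 2.94 to 6.40 FPKM in the ovary and of 0.418 to 4.19 FPKM in the uterus, where Camp and Ngp were at 0 in every library. The part of these cells in the Mmp8 and Mmp12 values was not tested. The other protease of this group that was called, Mmp19, ranged from 14.04 to 26.5 FPKM in the ovary and from 38.9 to 61.6 FPKM in the uterus (log2 difference 1.36, SE 0.13, limma adjusted p = 1.37e-06).

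Mmp7, matrilysin, an epithelial protease, spread widely within both tissues, from 0.971 to 7.37 FPKM in the ovary and from 2.11 to 50.1 FPKM in the uterus. Its log2 difference of 1.65 (SE 0.69) had a limma adjusted p of 0.0600, and of 0.0490 with the mouse as a block, so its call depended on the fit.

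The procollagen N-proteinases, which trim the ends of newly made fibrillar procollagen, were all higher in the uterus at an adjusted p under 0.05, and 2 of the 3 by at least 2-fold. Adamts3 ranged from 2.25 to 4.89 FPKM in the ovary and was 10.5 ± 1.16 FPKM (lowest 8.92) in the uterus, without overlap (log2 difference 1.58, SE 0.16, limma adjusted p = 2.29e-06). Of the 5 Adamts proteoglycanases tested, which cut versican and related proteoglycans, 3 were called higher: Adamts8 (log2 difference 1.41, SE 0.27, limma adjusted p = 0.000595), Adamts15 and Adamts5. Adamts8 was low in both tissues, at 0.259 to 0.980 FPKM in the ovary and 1.16 to 2.53 FPKM in the uterus. Of the 7 tested Adamts proteases outside these classes, 0 were called and 4 had an adjusted p under 0.05, with Adamts10 and Adamts19 lower and Adamts6 and Adamts12 higher in the uterus.

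**Figure D2:**
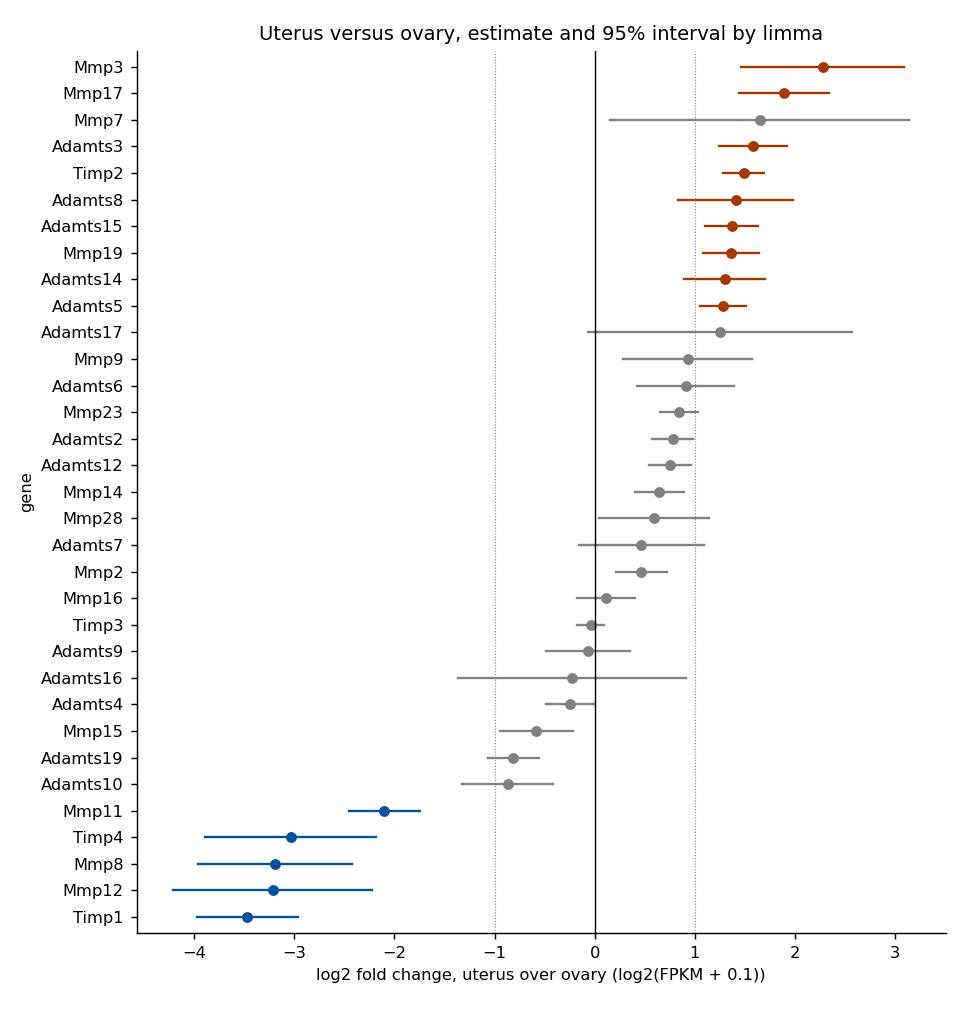
Difference of uterus over ovary on the log2(FPKM + 0.1) scale for the 33 tested members (points, with 95% intervals as lines), ordered by size, with members called higher or lower in the uterus coloured and dotted lines at 2-fold. The 9 higher genes run from Adamts5 at 1.28 to Mmp3 at 2.28, and the 5 lower genes from Mmp11 at -2.10 to Timp1 at -3.47.

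Whole tissues were sequenced, so fewer cells of a type and less RNA per cell cannot be told apart in any of these differences. The marker lists of smooth muscle (7 of 7 higher in the uterus), granulosa cells, and oviduct and ciliated cells (7 of 7 lower each) moved with the tissue, and their part in the differences between tissues was not tested.

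Along the chromosome 9 stretch, Mmp3 was called higher in the uterus. Mmp12 and Mmp8, which lie on either side of it, had higher values in the ovary and were admitted through it, so their direction is a description. Mmp13, Mmp1b, Mmp10, Mmp27 and Mmp20 were too low to be tested, with no library above 0.740 FPKM. Mmp12 and Mmp1b overlap on opposite strands, and the study's counting used strand.

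**Figure D3:**
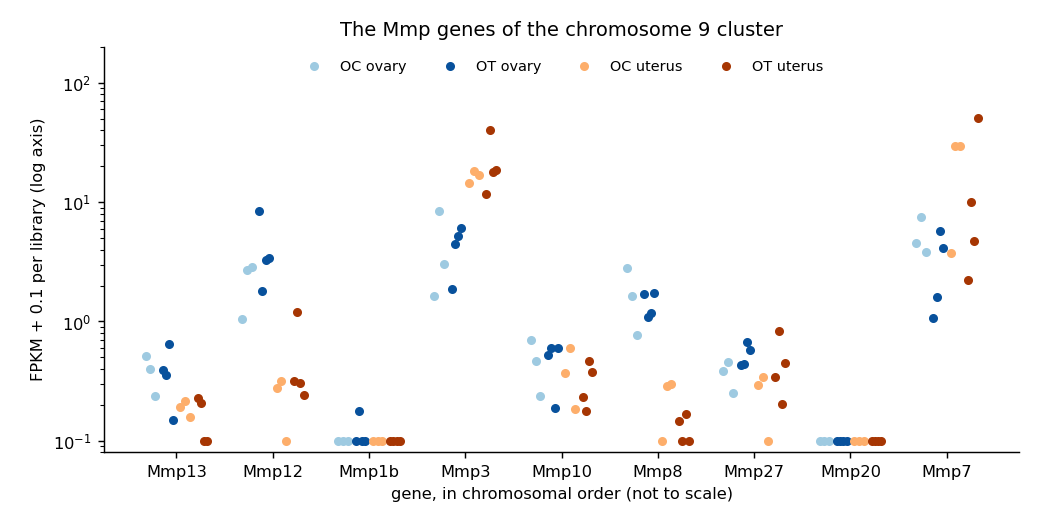
FPKM + 0.1 (log axis) of the 9 Mmp genes of the chromosome 9 stretch in chromosomal order, with 1 point per library and colours for the 4 groups. Mmp3 lies higher in the uterus, Mmp12 and Mmp8 lie higher in the ovary, and Mmp7 spreads over more than 10-fold within the uterus.

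The second comparison asked whether AMSC-CM went with a change in these genes in the uterus. A gene was called at the cutoffs the study used, a difference of at least 2-fold and an unadjusted p of at most 0.05, here by limma. Of the 31 members tested, 1 was called, Timp4, which is 3.23% of them, where 2.9% of all 14151 tested genes were called, 2.23% higher and 0.664% lower. Timp4 reached the 0.5 FPKM filter through the OT uteruses, since its OC mean was 0.122 FPKM, so a higher value in OT was built in by how it was admitted. Of the 30 members tested with a mean of at least 0.5 FPKM in both groups, 0 were called, against 2.16% of the 13781 such genes. The median log2 fold change, OT over OC, was -0.01 over the members and 0.01 over all tested genes, and 24 of the 31 members had a log2 fold change within 0.5 of 0. No gene of the table had a limma adjusted p under 0.05 in the uterus, and 3 members had an unadjusted p under 0.05 (8.2% of all genes did, 5.15% being higher in OT), all 3 higher in OT.

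Timp4 was 0.155, 0.182 and 0.0299 FPKM in the OC uteruses and 4.80, 0.736, 1.89 and 0.667 FPKM in the OT uteruses (0.122 ± 0.0811, n = 3, against 2.02 ± 1.93, n = 4). Every OT uterus lay above every OC uterus, with OT1 the highest. The log2 fold change was 2.91 (SE 0.73, 95% interval 1.23 to 4.59, limma adjusted p = 0.485), on a scale with 0.1 FPKM added that understates the change of so low a gene. Without OT1 it was 2.37 (SE 0.64, limma adjusted p = 0.356). The call held in all 13 alternative settings, with log2 fold changes from 1.24 to 3.26 and limma adjusted p from 0.0511 to 0.923. Those settings reused the same libraries, so they are no independent support for a difference. These included the single fit of 14 libraries (log2 fold change 2.91, limma adjusted p = 0.0511). The ovaries (mean 4.80 FPKM) and the OT uteruses both counted towards the filter for Timp4 there. In that fit 46 genes of the table had a limma adjusted p under 0.05 in the uterus, where the fit of the uteruses alone gave none. In the ovary Timp4 was 4.99, 5.47 and 4.06 FPKM in OC and 3.55, 7.75, 2.98 and 4.80 FPKM in OT. Those ovary groups overlapped, and the log2 fold change was -0.11 (95% interval -0.79 to 0.57, limma adjusted p = 0.998).

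Fat cell genes were also higher in the OT uteruses. All 12 adipocyte genes listed were called higher in the OT uterus, with log2 fold changes from 1.93 (Pnpla2) to 4.27 (Plin1), and none of them was at 0 in all libraries of a tissue. Their summed FPKM was 146, 444 and 411 in the OC uteruses and 17370, 2021, 3745 and 2110 in the OT uteruses. OT1 and OT3, the uteruses with the highest and next highest adipocyte sum, also had the highest and next highest Timp4. The order did not hold throughout, since OT4 had a higher adipocyte sum than OT2 but less Timp4, and OC3 a higher sum than OC1 but less Timp4. In the ovary 7 of the 12 genes were called higher in OT. There the 12 genes summed to 281 to 450 FPKM in OC and to 2734, 1971, 354 and 706 FPKM in OT. Timp4 in the same OT ovaries was 3.55, 7.75, 2.98 and 4.80 FPKM. The stratified squamous epithelium list also moved in the uterus, with 7 of 10 genes called higher and sums of 2.96 to 13.98 FPKM in OC and of 45.3 to 806 FPKM in OT. Of the 6 lymphocyte and plasma cell genes, 3 were called higher, with sums of 7.53 to 12.1 FPKM in OC and of 15.4 to 98.3 FPKM in OT. No smooth muscle gene and no gene of the uterine stroma and epithelium list was called, but their sums did not overlap between the groups. Smooth muscle came to 5340 to 6354 FPKM in OC and 6659 to 10323 FPKM in OT, and uterine stroma and epithelium to 438 to 534 FPKM in OC and 276 to 383 FPKM in OT. The part of these cell types in the Timp4 result was not tested. Timp4 (chr6:115241892-115252205, minus strand) lies within Syn2 on the opposite strand, as Timp1 lies within Syn1 and Timp3 within Syn3, and the counting used strand. Timp2 overlaps Cep295nl on the same strand, which such counting does not separate, and Cep295nl was listed at 1.59 to 8.97 FPKM over the 14 libraries.

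**Figure D4:**
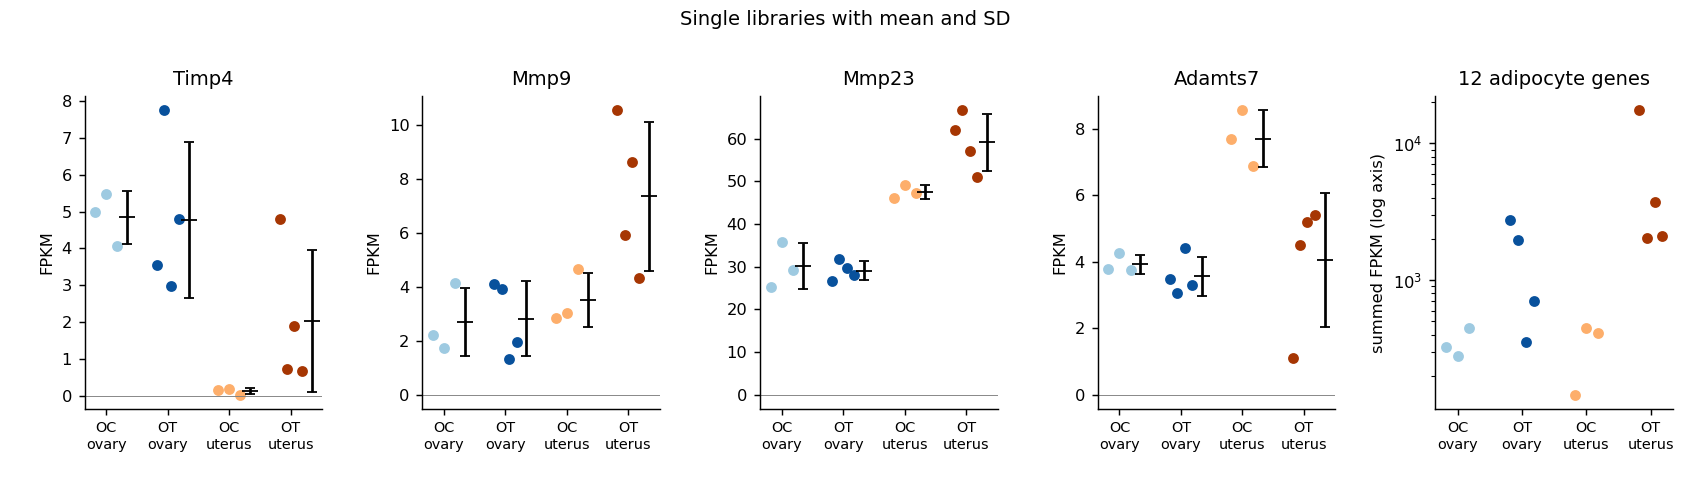
FPKM of Timp4, Mmp9, Mmp23 and Adamts7 in each library (points, with the group mean and SD beside them), and the summed FPKM of 12 adipocyte genes on a log axis. Timp4 is at or below 0.182 FPKM in the OC uteruses and between 0.667 and 4.80 FPKM in the OT uteruses, in which the adipocyte sum is 2021 or more against at most 444 in OC.

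The other inhibitors overlapped between OC and OT in the uterus. Timp1 was 14.2, 14.2 and 20.4 FPKM in OC and 30.1, 25.7, 18.9 and 11.7 FPKM in OT (log2 fold change 0.34, 95% interval -0.40 to 1.07). Timp2 was 202, 205 and 207 FPKM in OC and 188, 249, 223 and 185 FPKM in OT (log2 fold change 0.03, 95% interval -0.30 to 0.36). Timp3 was 72.0, 77.6 and 79.4 FPKM in OC and 66.7, 61.9, 74.6 and 68.7 FPKM in OT (log2 fold change -0.17, 95% interval -0.44 to 0.10). For Timp2 the OC uteruses lay close together and the OT uteruses spread on both sides of them.

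Mmp9 and Mmp23 were the other members with an unadjusted p under 0.05. Mmp9, a gelatinase known from macrophages, neutrophils and invading cells, was 2.84, 3.04 and 4.67 FPKM in OC uteruses and 10.5, 5.93, 8.62 and 4.34 FPKM in OT uteruses. OT4 lay below the highest OC uterus, so the groups overlapped. The log2 fold change was 0.998 (SE 0.33, 95% interval 0.24 to 1.76, limma adjusted p = 0.550), just under 2-fold, so Mmp9 was not called, and it was called in 4 of 13 alternative settings. Of the marker lists, 0 of 7 macrophage and 0 of 3 tested neutrophil genes were called in the uterus. The macrophage genes had a median log2 fold change of 0.68. Their sum was 320 to 377.9 FPKM in OC and 378.3 to 1224 FPKM in OT, just without overlap. Of the multinucleated giant macrophage and osteoclast list, 1 of 3 tested genes was called higher, Acp5 (log2 fold change 2.19), while the sums overlapped (11.9 to 51.4 FPKM in OC and 40.6 to 85.0 FPKM in OT). The part of such cells in the Mmp9 values was not tested.

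Mmp23, a small protease released from the membrane by furin, was 46.0, 49.1 and 47.2 FPKM in OC uteruses and 62.0, 66.6, 57.2 and 50.9 FPKM in OT uteruses. All OT values lay above all OC values, by less than 2-fold (log2 fold change 0.31, SE 0.13, limma adjusted p = 0.596). Adamts7, which cuts cartilage oligomeric matrix protein, was 7.71, 8.56 and 6.87 FPKM in OC uteruses and 1.10, 4.51, 5.19 and 5.42 FPKM in OT uteruses. All OT values lay below all OC values, with OT1 the lowest. The log2 fold change was -1.13 (SE 0.51, limma adjusted p = 0.600), with an unadjusted p above the cutoff. Without OT1 it was -0.60 (SE 0.15, limma adjusted p = 0.317), under 2-fold. In all, the groups did not overlap for 3 of the 31 members in the uterus, against 11.9% of all tested genes.

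The abundant proteases of the uterus overlapped between the groups. Mmp14 was 140, 150 and 139 FPKM in OC and 97.3, 178, 141 and 143 FPKM in OT (log2 fold change -0.06, 95% interval -0.52 to 0.40). Mmp2 was 108, 147 and 138 FPKM in OC and 71.4, 119, 103 and 123 FPKM in OT (log2 fold change -0.35, 95% interval -0.84 to 0.15). Mmp19 was 60.1, 56.3 and 52.9 FPKM in OC and 61.6, 59.0, 53.9 and 38.9 FPKM in OT (log2 fold change -0.10, 95% interval -0.50 to 0.30). OT1 held the lowest uterine value of Mmp14 and Mmp2, and it held the lowest value of 14 and the highest of 6 of the 31 members.

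**Figure D5:**
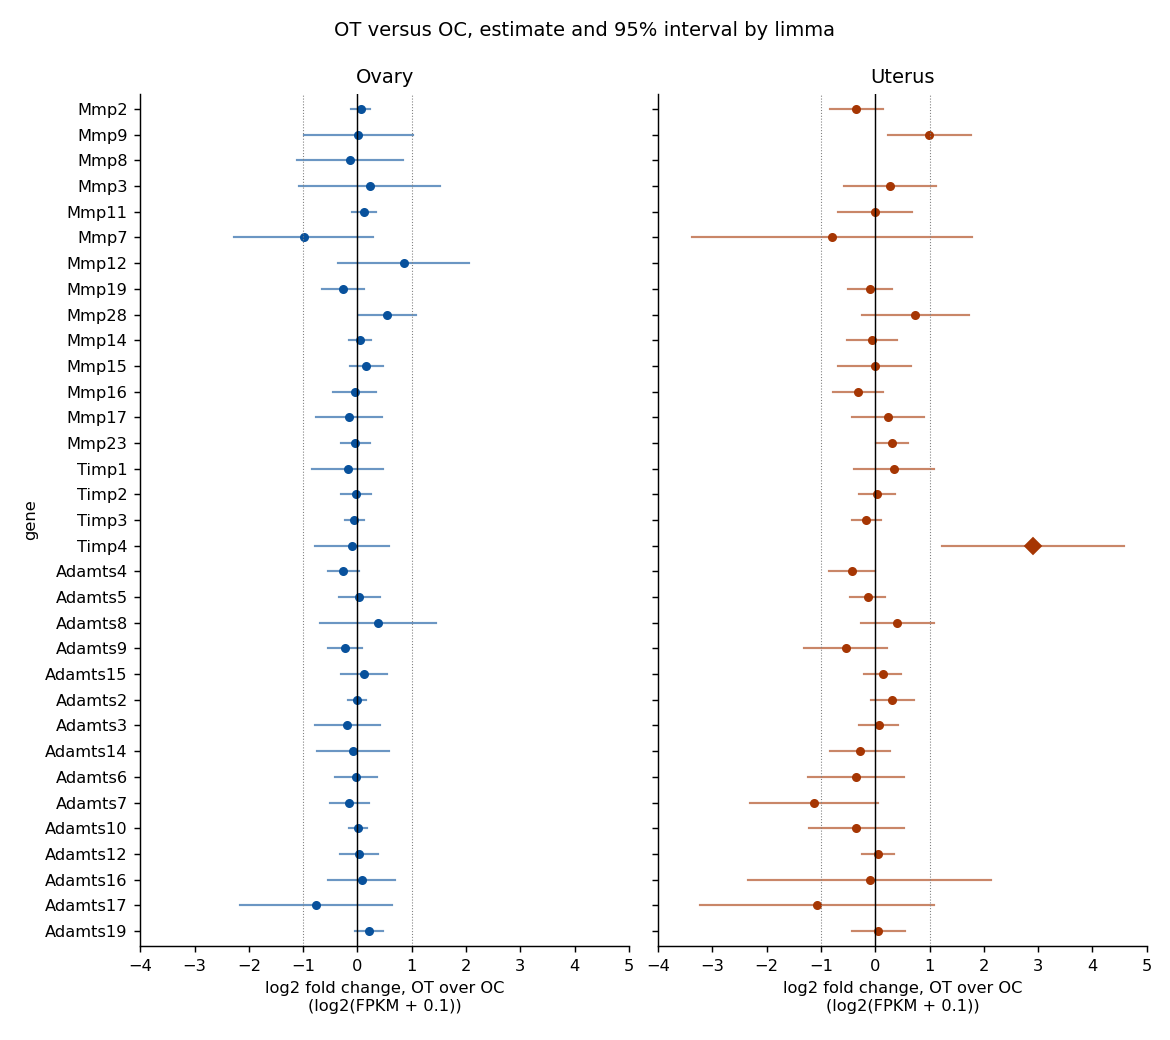
Log2 fold change of OT over OC on the log2(FPKM + 0.1) scale for each tested member in the ovary and in the uterus (points, with limma's 95% intervals as lines), with dotted lines at 2-fold and a diamond for a called member. Timp4 in the uterus, at 2.91, is the one diamond, and most other points lie within 0.5 of 0.

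The third comparison asked the same in the ovary. Of the 33 members tested with limma, 0 were called, where 0.451% of all 14415 tested genes were called. The members' smallest adjusted p was 0.997, and no gene of the table had one under 0.05. The median log2 fold change was -0.03 over the members and -0.01 over all tested genes, and 29 of the 33 members lay within 0.5 of 0. The 95% interval reached a median of 0.39 to either side of the estimate, against 0.66 in the uterus. At that ovary width a 2-fold change lies outside the interval when the estimate is near 0. Some members had wider intervals that reached 2-fold, such as Mmp9 (log2 fold change 0.01, 95% interval -0.99 to 1.01).

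Mmp28, a secreted protease of epithelia, was the 1 member with an unadjusted p under 0.05 (4.51% of all genes had one, 2.6% being higher in OT) and the 1 member whose ovary groups did not overlap (5.91% of all genes). It was 1.04, 1.53 and 1.62 FPKM in OC and 1.66, 2.37, 2.28 and 2.00 FPKM in OT, with OT1 just above the highest OC ovary. Its log2 fold change was 0.55 (SE 0.23, 95% interval 0.03 to 1.07, limma adjusted p = 0.997). In the uterus Mmp28 was 0.960, 2.63 and 3.04 FPKM in OC and 5.19, 2.34, 3.62 and 2.95 FPKM in OT, which overlapped (log2 fold change 0.74, 95% interval -0.25 to 1.73).

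The most abundant ovarian members overlapped between OC and OT. Timp1 was 264, 214 and 174 FPKM in OC and 111, 284, 201 and 201 FPKM in OT (log2 fold change -0.18, 95% interval -0.83 to 0.47). The OT ovaries thus held both the lowest and the highest Timp1 value. Timp2 was 60.4, 89.4 and 76.8 FPKM in OC and 69.8, 73.7, 76.1 and 73.7 FPKM in OT (log2 fold change -0.03, 95% interval -0.30 to 0.25). Timp3 was 77.8, 75.7 and 72.7 FPKM in OC and 77.9, 65.0, 71.0 and 76.3 FPKM in OT (log2 fold change -0.06, 95% interval -0.23 to 0.11). The OT ovaries lay within the OC range for Timp2, whereas for Timp3 OT2 and OT3 lay below it and OT1 just above it.

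Mmp14 was 75.3, 96.4 and 93.5 FPKM in OC ovaries and 86.9, 92.1, 95.4 and 88.4 FPKM in OT ovaries (log2 fold change 0.04, 95% interval -0.16 to 0.25). Mmp2 was 75.2, 86.8 and 83.5 FPKM in OC and 90.3, 77.5, 86.9 and 85.6 FPKM in OT (log2 fold change 0.06, 95% interval -0.12 to 0.23). OC1 held the lowest value of both genes. Mmp19 was 20.3, 26.5 and 22.8 FPKM in OC and 14.04, 21.5, 23.0 and 19.8 FPKM in OT (log2 fold change -0.26, 95% interval -0.65 to 0.13).

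The lowest and the highest fold change in the ovary belonged to low members. Mmp7 had the lowest log2 fold change, -0.99 (95% interval -2.27 to 0.29), from 4.41, 7.37 and 3.72 FPKM in OC and 0.971, 1.51, 5.67 and 4.05 FPKM in OT. Mmp12 had the highest, 0.85 (95% interval -0.36 to 2.05), from 0.956, 2.60 and 2.76 FPKM in OC and 8.33, 1.72, 3.20 and 3.33 FPKM in OT. The groups overlapped for both genes, and OT1 held the lowest Mmp7 and the highest Mmp12 value. Without OT1 the log2 fold change of Mmp7 was -0.58 and that of Mmp12 was 0.44, and without OC1 that of Mmp12 was 0.38. The uterine stroma and epithelium list also varied between ovaries. It summed to 29.3, 113 and 72.3 FPKM in OC and to 26.1, 25.9, 103 and 64.5 FPKM in OT. The part of such cells in the Mmp7 values was not tested.

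Whether the response differed between the tissues was tested as an interaction in the fit of 14 libraries. Of the 33 members tested, 1 was called at the cutoffs of 2-fold and an unadjusted p of 0.05, again Timp4, where 1.83% of all 14557 genes were called, 1.28% with the larger response in the uterus. Its estimated response in the uterus exceeded that in the ovary by 3.01 on the log2 scale (SE 0.79, 95% interval 1.31 to 4.72, limma adjusted p = 0.844). Timp4 started from an OC mean of 0.122 FPKM in the uterus, against a mean of 4.80 FPKM over the ovaries. An equal rise in FPKM is a smaller log2 change from the higher level, so the amounts gained were not compared. Timp4 was called in all 12 alternative settings, which reused the same libraries (limma adjusted p from 0.401 to 0.997). Without the mouse OT1 the difference was 2.37 (SE 0.63, limma adjusted p = 0.668). Mmp9 had a difference of 0.99 (95% interval -0.30 to 2.28) and Adamts7 of -0.98 (95% interval -2.23 to 0.27), neither of which passed the cutoffs.

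The surrounding pathway was read from 66 other genes in 6 lists: the plasminogen system, other inhibitors and activators, the Adam family, Adamts-like proteins, other matrix proteases and matrix substrates. In the ovary 0 of the 58 tested were called (0.451% of all genes). Of these, 2 had an unadjusted p under 0.05 (4.51% of all genes did), Vcan, which encodes versican, at a log2 fold change of -0.40 and the cathepsin gene Ctss at 0.36. In the uterus 1 of the 53 tested was called, Adam28 (2.9% of all genes were called).

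Adam28, a membrane-bound protease, was 0.537, 1.005 and 0.531 FPKM in OC uteruses and 2.07, 1.298, 5.51 and 4.08 FPKM in OT uteruses, without overlap (log2 fold change 1.93, SE 0.51, limma adjusted p = 0.485). Plau, Plaur, Thsd4 and Adamtsl3 were the other genes of these lists with an unadjusted p under 0.05, all higher in OT by less than 2-fold. With Adam28 they made 5 of the 53 tested, where 8.2% of all genes had such a p, 5.15% being higher in OT. Over the uteruses the stratified squamous epithelium sum had the same order as Adam28. It was 4.09, 13.98 and 2.96 FPKM in OC and 238, 45.3, 806 and 393 FPKM in OT. The adipocyte sum was highest in OT1 and the lymphocyte and plasma cell sum in OT2, whereas Adam28 was highest in OT3. The part of these cells in the Adam28 values was not tested.

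Between the tissues, 18 of the 55 tested pathway genes were called higher and 9 lower in the uterus (10% and 9.59% of all genes). The interstitial collagen genes Col1a1 (log2 difference 2.40, SE 0.24, limma adjusted p = 2.69e-06), Col1a2 (1.90, SE 0.16) and Col3a1 (1.76, SE 0.18) were higher there, as the procollagen N-proteinases were. Both plasminogen activators, Plau (-1.66, SE 0.12) and Plat (-1.26, SE 0.11), and Vcan (-1.21, SE 0.16), the substrate of the Adamts proteoglycanases, were lower in the uterus. In the interaction test 2 of the 55 pathway genes were called (1.83% of all genes), Adam28 at 1.504 (SE 0.60, limma adjusted p = 0.844) and Thsd4 at 1.10 (SE 0.35, limma adjusted p = 0.844).

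Adamts1, the versican protease left out by the choice of genes, was 91.2, 99.2 and 96.7 FPKM in OC uteruses and 58.0, 52.7, 62.7 and 67.7 FPKM in OT uteruses, all lower (log2 fold change -0.67, SE 0.12, limma adjusted p = 0.357) but by less than 2-fold. In the ovary it was 58.4, 80.3 and 59.1 FPKM in OC and 19.9, 49.6, 53.9 and 49.6 FPKM in OT (log2 fold change -0.69, SE 0.33, limma adjusted p = 0.997).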

How the data were processed

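The deposited values were FPKM per gene. Per the paper's methods, the authors trimmed strand-specific reads with Skewer 0.2.2, mapped them to mm10 with STAR 2.5 and computed FPKM with Cufflinks 2.2.1. Their Cuffdiff test needs the reads and was not rerun, and depth per library is unknown. Identifiers of all 21853 genes were matched to GENCODE M21, and no value was rescaled. Genes averaging 0.5 FPKM or more were fitted on log2(FPKM + 0.1) with limma 3.58.1 (R 4.3.3; lmFit, eBayes with a trend), by tissue for OT against OC and over 14 libraries for the tissue and interaction contrasts, with p adjusted over all tested genes; the fits were checked on simulated data, where the unadjusted cutoffs also called genes that had not been changed. Ovary and uterus came from the same mouse, whose deviations correlated at 0.074 to 0.254, against -0.235 to 0.248 for different mice of a group. The mouse as a block was an alternative. Other alternatives changed the pseudocount (1), the filter, the scaling or the libraries. Tables were handled in Python 3.11.15 (pandas 2.3.3, numpy 2.4.6, matplotlib 3.10.9). The members, gene lists and tests were chosen with earlier results of these data known. Values in every library are given for called members, the 5 highest in each tissue and Timp1 to Timp4, and, for the tissues, the 5 largest called differences in each direction. Mmp9, Mmp23, Mmp28, Mmp7, Mmp12 and Adamts7 were given in full after their values were seen. A gene of the pathway lists is not reported here and is left out of their counts.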

Additional observations from a re-analysis of the deposited data

Results flagged for a closer look

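Among the OT ovaries, OT3 stood apart for Adamts9, a proteoglycanase, at 27.2 FPKM against 18.6 to 19.6 FPKM in the other 3, by Dixon's test for a single distant value. Among the OT uteruses, OT4 stood apart for Mmp7 at 50.1 FPKM against 2.11 to 9.88 FPKM. These were 2 of 64 groups screened (3.12%), and chance alone gives about 1 in 20. In the interaction test Timp4 passed the unadjusted cutoffs, as 1.83% of all 14557 tested genes did. Its estimate was 3.015, with the larger response on the log2 scale in the uterus (limma adjusted p = 0.844), where its OC level was lower. No gene of the table had an adjusted p under 0.05 in that test.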

How the results depend on the processing

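In the ovary the count of called members was 0 in every setting apart from leaving out a mouse, where it ranged from 0 to 1: Adamts17 was called lower without OC1 (log2 fold change -1.56), Mmp12 higher without OT2 (1.18) and Mmp7 lower without OT3 (-1.39). In the uterus the count was 1 and rose to 2 in the single fit of 14 libraries (Timp4 and Adamts7) and to 5 with a replicate block without OT4, in which Timp4 and Mmp9 were higher and Adamts7, Adamts17 and Mmp7 lower. It ranged from 1 to 3 when a mouse was left out, 3 being without OT4, where Mmp9 and Adamts7 were added, and 2 without OC3 or OT2, where Mmp9 was added. The shared numbers of OC and OT name different mice, their correlations ran from -0.0275 to 0.331, and not every sample correlated best with its own number. The interaction count ranged from 1 to 2 when a mouse was left out, Mmp8 being added without OC1 (-1.53). For the tissues the count ranged from 12 to 17 over all alternatives, with 17 without OT1 and 15 with the mouse as a replicate block, which changed no other call there or in the interaction. With a pseudocount of 1, Adamts8 (0.74) and Adamts14 (0.93) fell under 2-fold. Signs turned for 3 inhibitors near 0 when a mouse was left out. In the ovary Timp1 ranged from -0.3784 to 0.07525 (above 0 without OT1), Timp2 from -0.1776 to 0.1049 (without OC2) and Timp4 from -0.3667 to 0.08358 (without OT1 or OT3), and in the uterus Timp2 ranged from -0.05029 (without OT2) to 0.09335. None of these passed the threshold, and the cause was not tested. Over all genes the calls went from 65 to between 18 and 159 in the ovary, from 410 to between 259 and 666 in the uterus and from 267 to between 134 and 438 for the interaction. With 3 against 4 mice and unknown depth, members such as Mmp7 and Adamts17 had intervals wider than 2-fold to either side.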
